A study of Mus musculus with 4 samples.

Results

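The 8 genes described here encode laminin chains (Lama2, Lama4, Lamb1, Lamb2 and Lamc1), the nidogens Nid1 and Nid2, and perlecan, the product of Hspg2. They were chosen by symbol: every probe set of the array whose annotated gene was one of the 8 was taken, which gave 14 probe sets. The array as a whole measured 12393 genes through 20380 probe sets that name a single gene. All 8 genes had at least 1 probe set at or above the median of an array, a level called bright here.

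A basement membrane is a thin sheet of extracellular matrix that underlies epithelium and endothelium and surrounds muscle, fat and Schwann cells. A laminin is a trimer of an alpha, a beta and a gamma chain, joined as a coiled coil and assembled into a polymer at the cell surface. Nidogens bind the laminin gamma-1 chain and type IV collagen and so link both networks, and perlecan is a heparan sulfate proteoglycan that binds laminin, nidogen and growth factors. In the mammary gland the basement membrane lies between the epithelium and the stroma. Fibroblasts, pericytes, endothelial cells and adipocytes are among its known sources, and proteases degrade it during remodeling.

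Macrophages were sorted from mouse mammary glands in 4 groups with 1 array each. The remodeling glands carried no tumor, and 1 array came from wild-type females and 1 from females with 2 copies of Ets2 deleted. The tumors were early-stage mammary tumors induced by PyMT, the polyoma middle T oncogene. The tumor control is wild type by its title but has 1 copy of Ets2 by its source label, and the other tumor array had 2 copies deleted. All 4 groups carried a YFP label in macrophages, and the labelled cells were isolated by flow sorting. Ets2, a transcription factor of the ETS family, was removed in the macrophages according to the series' design. The driver of the deletion, the strain, the age and the number of animals per RNA sample are not given in the sources used here. The arrays were laid out to compare Ets2 states within tumors and within remodeling glands.

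With 1 array per group there was no replicate check and no test, and "higher" and "lower" refer to these arrays alone. A difference was called when it reached 2-fold (1 on the log2 scale) and the value on the brighter array was no lower than that array's median. Array medians were between 5.98 and 6.30 on the log2 scale, and the number of arrays limits the precision. The only error at hand is how far bright probe sets for 1 gene disagree. Its pooled standard deviation over all genes was 0.278 in the remodeling Ets2 comparison, 0.338 in the tumor Ets2 comparison, 0.410 between tumor and remodeling on the Ets2-expressing arrays and 0.320 on the Ets2-deficient arrays. It covers neither animals, sorts nor amplification. Values of Ets2 itself were 12.7 to 13.2 on all 4 arrays, the deficient ones included. Its single probe set therefore gave no check of the deletion, whose exons are not given. Macrophage markers were bright in 13 of 14 cases on every array, the exception being Itgam, the CD11b integrin chain. For the Actb controls the 3' probe set exceeded the 5' one, a gap that grows with RNA degradation or short amplification, by 2.72 and 2.96 on the remodeling arrays and 3.30 and 3.54 on the tumor arrays, in each pair with the Ets2-expressing array first. The same gap for the Gapdh controls was 1.61 and 1.80 on the remodeling arrays and 2.45 and 2.27 on the tumor arrays, in the same order. In tumors the 2 controls thus differed in which array had the larger gap. The part of these gaps in the results was not tested.

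In remodeling glands, 6 of the 8 genes were lower past 2-fold on the Ets2-deficient array, by 3.14- to 8.78-fold. These were both alpha chains (Lama2, Lama4), the beta-1 chain (Lamb1), the gamma-1 chain (Lamc1), Nid1 and Hspg2. The beta-2 chain Lamb2 differed by less, and Nid2 was nearly level. The background was a call of lower in 5.17% of 7095 bright genes and of higher in 1.31%. The genes' median difference was -2.14, against 0.05 over all bright genes. The 8 genes were chosen with earlier results of these data known, so setting them against this background is not a test. The 5 other laminin chains measured were dim, and all 5 differed by more than 0, with a median of 0.20. In tumors none of the 8 was called. In material of this kind, fewer cells of a type and less RNA per cell cannot be told apart.

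**Figure D1:**
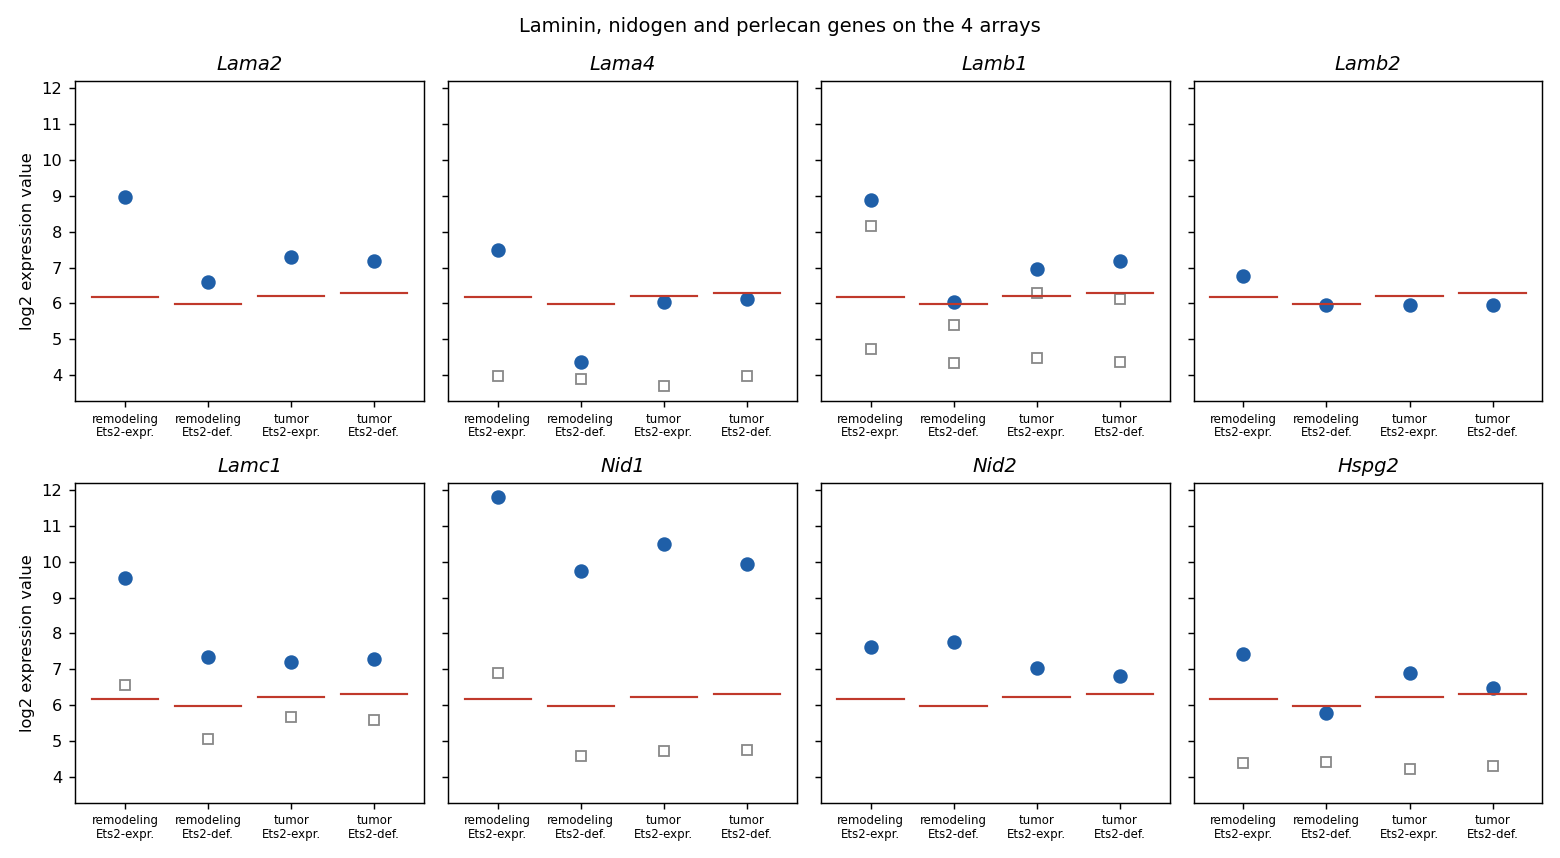
Log2 expression values (vertical axis) of every probe set of the 8 genes on the 4 arrays (horizontal axis). Filled circles are the probe set used for each gene, open squares its other probe sets and red lines each array's median. The Ets2-expressing remodeling array holds the highest used value for 7 genes, with Nid2 the exception.

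The alpha chains decide which tissue a laminin serves. Lama2 encodes the alpha-2 chain, known from muscle, peripheral nerve and mesenchymal cells, whose loss causes a muscular dystrophy. Its only probe set read 8.96 on the Ets2-expressing remodeling array, 6.58 on the Ets2-deficient remodeling array, 7.30 on the Ets2-expressing tumor array and 7.18 on the Ets2-deficient tumor array. The first array stood 1.66 above the next, and the other 3 lay within 0.72 of each other. With Ets2 deficiency the value differed by -2.38 in remodeling glands, a 5.21-fold lower level, and -0.13 in tumors.

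Lama4 encodes the alpha-4 chain of vessel walls, fat and other mesenchymal tissue. Its values in the same order were 7.49, 4.35, 6.04 and 6.11. The drop in remodeling glands was -3.13, or 8.78-fold, the largest of the 8 genes, and 27 of the 7095 bright genes had a lower difference. The Ets2-deficient remodeling value lay close to that array's 25th percentile of 4.29, so the size is not exact. A second probe set was below the 25th percentile on all 4 arrays (3.68 to 3.98), and the mean of both probe sets differed by -1.62 and was too dim to be called. In tumors the difference was 0.07, between values that were both below the array median.

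The beta-1 and gamma-1 chains each had more than 1 bright probe set. Lamb1, which encodes the beta-1 chain found in most laminins, read 8.88, 6.05, 6.95 and 7.19 in its brightest probe set, and 8.16, 5.41, 6.30 and 6.12 in another. The remodeling differences of these were -2.83 and -2.75, so their standard deviation was 0.06. The tumor differences, 0.24 and -0.18, had opposite signs. The remaining probe set was dim (4.34 to 4.72) and differed by -0.38 in remodeling glands.

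Lamb2 encodes the beta-2 chain, known from kidney, vessel walls and the neuromuscular junction. It read 6.77 on the Ets2-expressing remodeling array and 5.96 on each of the other 3, where the deposited values were exactly equal. The remodeling difference of -0.81 (1.75-fold) was below the limit for a call. Compared on the same arrays, Lamb1 differed by 2.03 more than Lamb2, a value with no test.

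Lamc1 encodes the gamma-1 chain, the partner that nearly all laminins share and the one that carries the nidogen-binding site. Its brighter probe set read 9.56, 7.34, 7.21 and 7.30, so that the Ets2-expressing remodeling array stood 2.22 above the other 3, which lay within 0.13 of each other. The second probe set read 6.55, 5.04, 5.67 and 5.58. Remodeling differences were -2.22 and -1.51 (standard deviation 0.50), and tumor differences 0.09 and -0.09.

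The nidogens diverged. Nid1, the main nidogen of most tissues, read 11.80, 9.75, 10.49 and 9.94, and its second probe set 6.91, 4.58, 4.71 and 4.75. Both were highest on the Ets2-expressing remodeling array, with remodeling differences of -2.05 and -2.33. In tumors they differed by -0.55 and 0.04. Nid2, a close relative that can partly replace Nid1, read 7.63, 7.75, 7.03 and 6.80 and was the only 1 of the 8 that was higher on the Ets2-deficient remodeling array, by 0.12. On the same 2 arrays Nid1 differed by 2.17 more than Nid2. Each array's Nid2 value was bright.

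Hspg2 encodes the core protein of perlecan. It read 7.44, 5.78, 6.89 and 6.47, highest on the Ets2-expressing remodeling array and lowest on the Ets2-deficient one. The remodeling difference was -1.65, or 3.14-fold, and the tumor difference -0.42. Its other probe set stayed between 4.21 and 4.41, all below the array medians, and differed by 0.03. The mean of both differed by -0.81, less than 2-fold, and was below the array median, so the Hspg2 call rests on 1 probe set. That probe set carries the suffix that marks possible matches to transcripts of other genes, as does the brightest one of Lamb1.

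**Figure D2:**
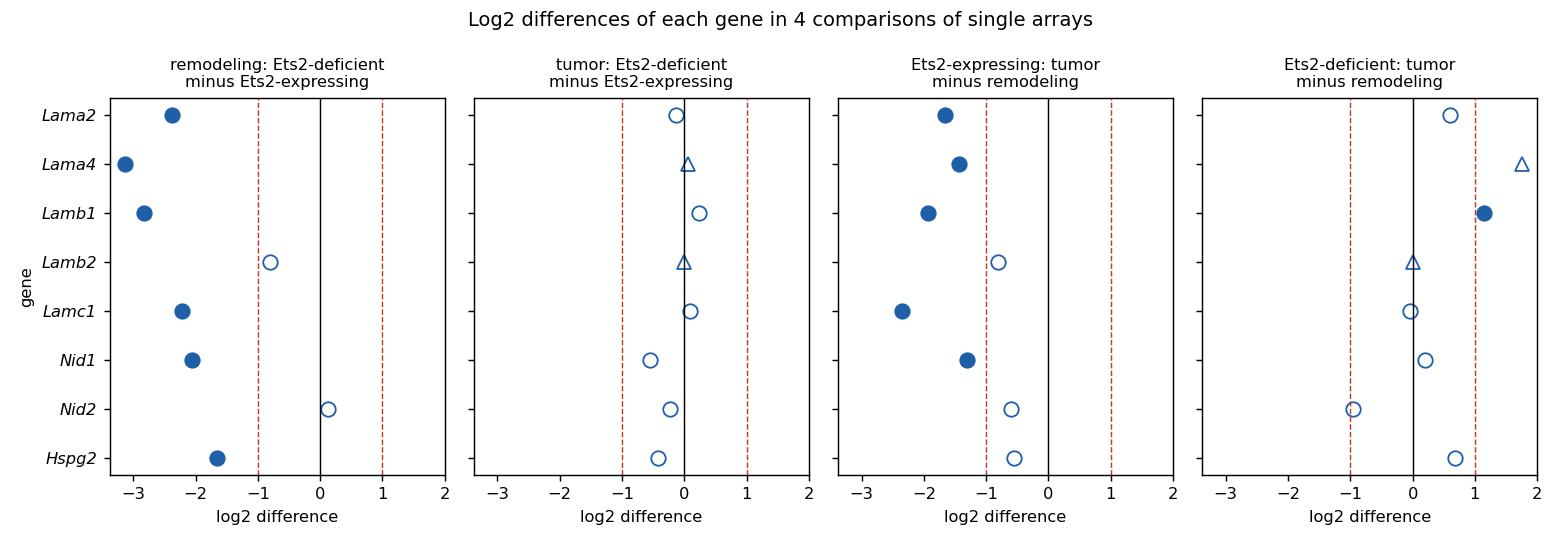
Log2 differences (horizontal axis) of the 8 genes (vertical axis) in the 4 comparisons of single arrays. Filled circles were called, open circles were bright but not called, open triangles were too dim to be called, and dashed red lines mark 2-fold. In remodeling glands 6 genes lie left of the line for 2-fold lower, and in the tumor Ets2 comparison all 8 lie between the lines.

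The promoters of genes that were lower in remodeling glands are shown so that their letters can be compared. The RefSeq promoter windows used here (GRCm38.p6) cover 250 bases before and 50 after a transcript start and were at hand for 5 of the 8 genes, Lama2, Lamb1, Nid1, Hspg2 and Lamb2. The windows are chr10:27616893-27617192 on the minus strand for Lama2, chr12:31265043-31265342 on the plus strand for Lamb1, chr13:13437352-13437651 on the plus strand for Nid1, chr4:137468553-137468852 on the plus strand for Hspg2 and chr9:108479612-108479911 on the plus strand for Lamb2. Each is written 5′ to 3′ along the gene, with the core of ETS factor sites, GGAA on either strand, in capitals. Lamb2 stands last, as it was lower by 1.75-fold and so was not called. Nid2, the gene that was nearly level, had no window at hand.
Lama2: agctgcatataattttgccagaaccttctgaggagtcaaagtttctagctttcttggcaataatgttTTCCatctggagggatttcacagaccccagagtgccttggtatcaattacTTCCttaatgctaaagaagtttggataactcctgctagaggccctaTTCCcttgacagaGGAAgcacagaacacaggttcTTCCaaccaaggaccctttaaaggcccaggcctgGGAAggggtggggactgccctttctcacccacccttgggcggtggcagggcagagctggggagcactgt
Lamb1: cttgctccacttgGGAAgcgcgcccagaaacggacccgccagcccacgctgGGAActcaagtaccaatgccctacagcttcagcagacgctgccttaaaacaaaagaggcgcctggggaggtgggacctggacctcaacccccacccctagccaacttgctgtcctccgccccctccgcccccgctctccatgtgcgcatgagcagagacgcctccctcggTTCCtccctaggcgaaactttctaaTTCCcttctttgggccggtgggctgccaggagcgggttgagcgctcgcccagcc
Nid1: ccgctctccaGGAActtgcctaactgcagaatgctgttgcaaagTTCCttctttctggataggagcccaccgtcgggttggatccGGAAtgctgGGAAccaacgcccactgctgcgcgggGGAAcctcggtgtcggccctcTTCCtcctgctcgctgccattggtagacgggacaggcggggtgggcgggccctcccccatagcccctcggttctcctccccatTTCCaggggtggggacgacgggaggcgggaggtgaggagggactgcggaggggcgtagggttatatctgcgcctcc
Hspg2: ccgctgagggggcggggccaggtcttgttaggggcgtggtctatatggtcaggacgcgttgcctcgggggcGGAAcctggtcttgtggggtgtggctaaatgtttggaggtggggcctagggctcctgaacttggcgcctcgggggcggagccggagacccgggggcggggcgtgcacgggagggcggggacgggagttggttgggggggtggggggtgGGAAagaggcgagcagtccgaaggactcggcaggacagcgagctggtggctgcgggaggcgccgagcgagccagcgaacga
Lamb2: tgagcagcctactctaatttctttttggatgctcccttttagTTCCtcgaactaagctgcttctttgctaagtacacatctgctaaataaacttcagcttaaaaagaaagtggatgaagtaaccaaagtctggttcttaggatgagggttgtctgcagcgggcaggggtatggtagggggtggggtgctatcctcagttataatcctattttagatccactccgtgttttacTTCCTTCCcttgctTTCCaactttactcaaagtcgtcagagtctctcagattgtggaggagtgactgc

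The core GGAA occurred 6 times in the Lama2 window, 4 times in Lamb1, 7 times in Nid1, 2 times in Hspg2 and 4 times in Lamb2. It was present in 96.0% of 32851 RefSeq promoter windows of the same length. The longer ETS site CCGGAAGT, which contains that core, was found in none of the 5 and in 3.89% of all windows. The GC box GGGCGG, bound by Sp and Klf factors, occurred once in Lama2 and in Nid1, 2 times in Lamb1 and 5 times in Hspg2, and was not found in Lamb2. It was present in 35.7% of all windows. The TATA box TATAAA (13.6% of windows) and the AP-1 site TGANTCA (7.81%) were found in none of the 5. Both strands were searched for each motif. The GC content was 50.3% in Lama2, 63.7% in Lamb1, 64.7% in Nid1, 70.3% in Hspg2 and 44.0% in Lamb2, with a median of 52.7% over all windows. These matches describe letters in the windows.

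In tumors, the 8 genes were near level between the Ets2 labels. Differences ran from -0.55 (Nid1) to 0.24 (Lamb1), with 4 below 0, 3 above and Lamb2 at 0. The median was -0.06, against 0.03 over all bright genes. Of the 8, 6 were bright and 0 were called, where 0.761% of 7225 bright genes were called lower and 2.23% higher. The Ets2 difference in tumors minus that in remodeling glands was at least 1 for 6 genes, from 1.24 for Hspg2 to 3.20 for Lama4. It was 0.81 for Lamb2 and -0.35 for Nid2. By the remaining probe sets it was 0.06 for Hspg2, 0.39 for Lama4, 0.29 and 2.57 for Lamb1, 1.42 for Lamc1 and 2.37 for Nid1. With 1 array a group this difference of differences was not tested.

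Tumor and remodeling macrophages, names that stand for the sorted samples as a whole, were next compared under each Ets2 label. On the Ets2-expressing arrays all 8 genes were lower in tumor than in remodeling macrophages, and 5 of 8 past 2-fold, where 5.2% of 7253 bright genes were called lower and 6.18% higher. By the probe set used for each gene, Lamc1 differed most (-2.35), with 28 bright genes lower still. Its second probe set differed by -0.89, less than 2-fold. With the mean of all probe sets Lamc1 was at -1.62, and Nid1 was lower at -1.76. Lamb1 (-1.94), Lama2 (-1.66), Lama4 (-1.44) and Nid1 (-1.31) were called too, and Lamb2 (-0.81), Nid2 (-0.60) and Hspg2 (-0.55) were not. The median was -1.38, against 0.09 over all bright genes. This comparison shares the Ets2-expressing remodeling array with the remodeling Ets2 comparison, so both contain the same high values. With the mean of all its probe sets, Lama4 differed by -0.87 and was not called.

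On the Ets2-deficient arrays 5 of the 8 genes had a higher value in tumor macrophages, 2 a lower one, and Lamb2 did not differ. Lamb1 was higher in tumor macrophages by 1.14 (2.20-fold) and was the only gene called, where 7.61% of 7203 bright genes were called higher and 1.61% lower. Its other bright probe set differed by 0.71. Lama4 differed by 1.76 between values that were both below the array median. Hspg2 (0.69), Lama2 (0.59) and Nid1 (0.19) did not reach 2-fold. Lamc1 was at -0.04 and Nid2, the lowest, at -0.95. The signs of the small values were not stable, as Nid1 was at -0.13 after median centring and Lamc1 at 0.25 with the mean of its probe sets. The call changed with the scaling: after centring each array on its median, Lamb1 was at 0.82 and not called, and Nid2 was at -1.27 and called lower.

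Scaling also moved the background. Of all genes called, higher ones made up 20.2% in the remodeling Ets2 comparison, 74.5% in the tumor Ets2 comparison and 82.5% in the comparison of settings on the Ets2-deficient arrays. These became 39.5%, 58.1% and 50.8% after centring each array on its median. The median of all genes in the remodeling Ets2 comparison was then 0.23 in place of 0.04. The 6 genes called lower in remodeling glands were between -1.46 and -2.94 under that scaling.

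**Figure D3:**
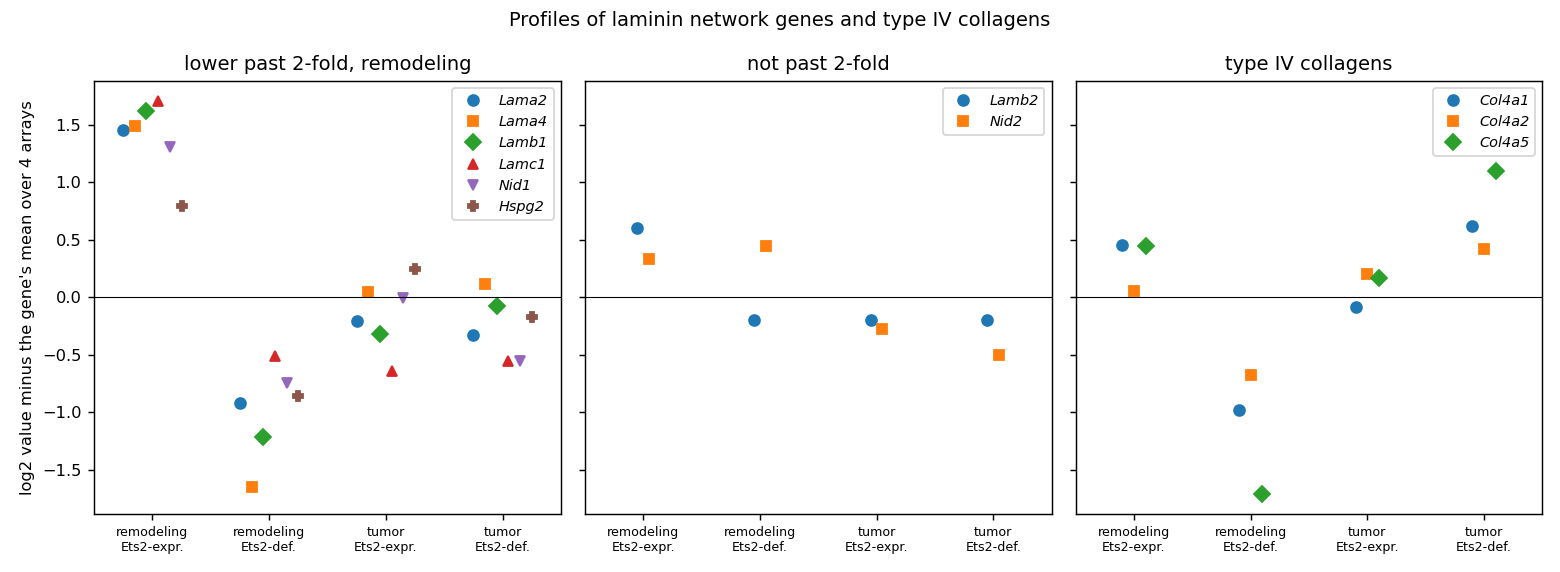
Log2 values minus each gene's own mean over the 4 arrays (vertical axis) by array (horizontal axis), for the 6 genes lower past 2-fold in remodeling glands, the other 2 genes, and the 3 type IV collagen genes that were bright on an array. The laminins and Nid1 peak on the Ets2-expressing remodeling array, and Col4a1, Col4a2 and Col4a5 on the Ets2-deficient tumor array.

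The profiles of the 6 genes with a range of at least 1 were compared with all genes bright on at least 1 array. The measure was the Euclidean distance between log2 profiles over 4 arrays, each minus its own mean. The genes nearest to Lama2 were Tpsb2 (0.094), Kctd4 (0.116) and Itm2a (0.127). For Lama4 they were Sfrp2 (0.173), Plat (0.226) and Loxl1 (0.244), and for Lamb1 Thbs2 (0.182), Plod2 (0.218) and Aldh1a3 (0.287). Lamc1 was nearest to Penk (0.160), Has2 (0.212) and Ptprd (0.216). For Nid1 these were Larp6 (0.135), Adamts15 (0.168) and Phyhipl (0.184), and for Hspg2 Col3a1 (0.033), Postn (0.160) and Gas1 (0.240). Of these neighbours, Tpsb2, Kctd4, Plat, Plod2, Aldh1a3, Penk, Has2, Ptprd, Larp6 and Phyhipl were bright on the Ets2-expressing remodeling array alone. They passed the brightness filter only through that array, so their shared peak there is partly set by the filter. Among the 8 genes themselves the closest profiles were those of Lama2 and Nid1 (0.377) and of Lama2 and Lamb1 (0.435). Hspg2 and Lamc1, 1.38 apart, differed most on the Ets2-expressing arrays. As 4 arrays define each profile, these distances are descriptions.

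The remaining laminin chains were dim. Of 6 listed, 5 were measured (Lama1, Lama3, Lama5, Lamb3 and Lamc3), none was bright on any array, and their median level was 4.08 to 4.56. These include the alpha-5 chain of mature epithelial and endothelial membranes and the alpha-3 and beta-3 chains of epithelial anchoring.

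Type IV collagens, the second network of the basement membrane, had another profile. Col4a1 and Col4a2 form the trimer found in nearly all basement membranes. Col4a1 read 9.08, 7.64, 8.54 and 9.25 and Col4a2 8.33, 7.60, 8.48 and 8.69. Both were lowest on the Ets2-deficient remodeling array, as most laminin genes were, but highest on the Ets2-deficient tumor array. In remodeling glands Col4a1 was called lower (-1.44) and Col4a2 was not (-0.73). On the Ets2-expressing arrays the tumor value differed from the remodeling value by -0.54 and 0.14. The brightest probe sets of Lamc1 and Lamb1 differed by -2.35 and -1.94, and the second one of Lamc1 by -0.89. Lama2 (-1.66), Lama4 (-1.44) and Nid1 (-1.31) were called lower too. Lamb2 (-0.81), Nid2 (-0.60) and Hspg2 (-0.55) were not called and lay nearer to Col4a1. On the Ets2-deficient arrays Col4a1 and Col4a2 were higher in tumor macrophages past 2-fold, by 1.60 and 1.09, and so was Col4a5 by 2.81. Lamb1 was called higher there too, by 1.14. Centring each array on its median moves all genes of a comparison by the same amount. It took Lamb1 to 0.82, so Col4a2, the smaller of these differences, also fell below 2-fold under that scaling. Over the 6 type IV collagen genes the median difference was -0.92 in the remodeling Ets2 comparison, with 1 of 2 bright genes called, and 0.31 in the tumor Ets2 comparison, with 0 of 3 called.

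Other basement membrane proteins were measured for 12 of 18 listed genes. In remodeling glands 3 of 5 bright ones were lower past 2-fold on the Ets2-deficient array, namely Col18a1 (-1.95), the precursor of endostatin, Col15a1 (-1.51) and the collagen-binding protein Sparc (-1.10). Agrn, which encodes the proteoglycan agrin and is built much like perlecan, differed by -0.34. The list's median was -0.43. In tumors 1 of 6 bright ones was called, Npnt, which encodes the epithelial integrin ligand nephronectin, at 1.24. Npnt was higher on the tumor array than on the remodeling array by 2.22 under the Ets2-expressing label and 3.27 under the Ets2-deficient label. Luminal epithelial markers were higher there too, with medians of 2.89 and 4.77 over the 11 measured. Their part in the Npnt values was not tested.

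Of 11 laminin receptors measured, 5 were bright, and none of these was called in either Ets2 comparison. Over all 11, dim ones included, the medians were 0.08 in remodeling glands and 0.08 in tumors. Over the 5 bright ones they were -0.29 and 0.30. Itgb1, the shared beta-1 integrin chain, read 9.05, 9.05, 8.57 and 8.87. Itga6, the alpha-6 integrin chain that binds laminins, read 9.42, 10.11, 10.47 and 11.14, lowest where the laminin genes were highest. It was higher in tumor macrophages by 1.05 and 1.03. Dag1, which encodes dystroglycan, the receptor of the alpha-2 chain and of perlecan, read 9.41, 8.92, 8.32 and 8.92 and was lower in tumor macrophages on the Ets2-expressing arrays by -1.09.

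Among the enzymes that degrade or build this matrix, some were lower on the Ets2-deficient remodeling array and others were near level. Of 9 bright degradation genes, 5 were called lower and 0 higher, with a median of -1.40 over the 11 measured. Among them were Adamts1 (-2.73), which cleaves proteoglycans, the type IV collagenase Mmp2 (-2.71), the serine protease gene Htra1 (-2.58) and the stromelysin Mmp3 (-2.25). The gelatinase Mmp9, at 0.52, and the cathepsins Ctsb (-0.03), Ctsl (-0.21) and Ctss (0.21) were not called. Of 7 bright genes for collagen folding and crosslinking, 4 were lower past 2-fold: Loxl1 (-3.46), the collagen chaperone Serpinh1 (-2.99), the lysyl hydroxylase Plod2 (-2.70) and Lox (-2.11). The hydroxylase genes P4ha1 (-0.66), Plod3 (-0.43) and Plod1 (-0.28) were not called. In tumors 0 of 8 and 0 of 6 bright genes of these lists were called.

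**Figure D4:**
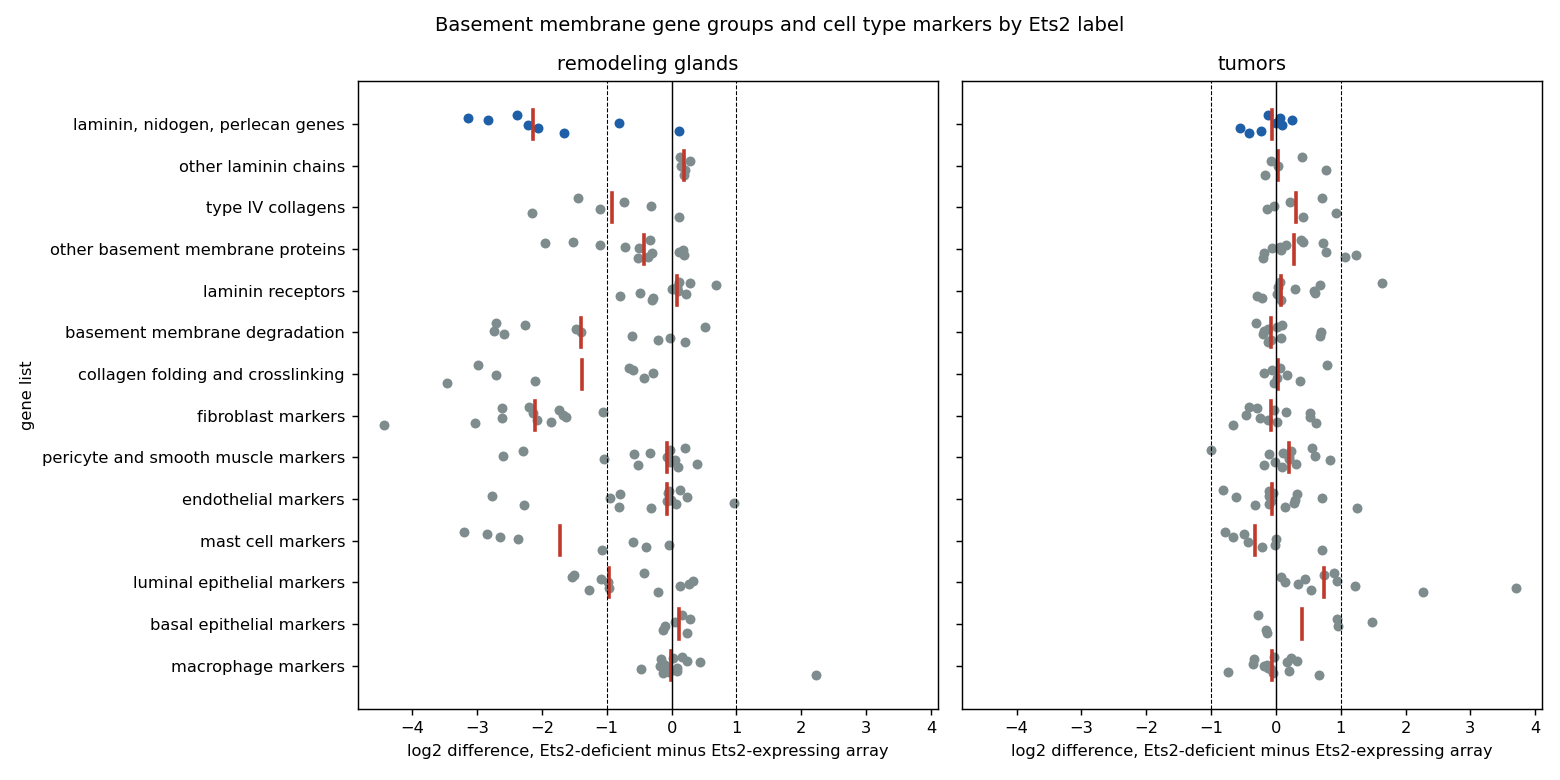
Log2 differences of single genes (points; horizontal axis, Ets2-deficient minus Ets2-expressing array) by gene list (vertical axis), with each list's median as a red bar, 2-fold as dashed lines and the 8 laminin, nidogen and perlecan genes in blue. In remodeling glands the medians are -2.14 for these and -2.11 for fibroblast markers, and macrophage markers lie at -0.01.

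Of the marker lists for other cell types, those of fibroblasts, mast cells and luminal epithelium had medians of -0.97 or lower in the remodeling Ets2 comparison. These medians are over all measured genes, dim ones included. Over its bright genes alone, the pericyte and smooth muscle list had a median of -1.05. Fibroblast markers, 12 of 13 measured, had a median of 10.54 on the Ets2-expressing remodeling array, 8.45 on the Ets2-deficient one, and 8.97 and 9.29 on the tumor arrays. All 12 were bright on 3 arrays and 10 on the Ets2-deficient remodeling array. In remodeling glands 12 of 12 were called lower (median -2.11), among them Islr (-4.43), Mfap5 (-3.03), the protease gene Fap (-2.61) and decorin, Dcn (-2.61). In tumors 0 of 12 were called (median -0.08). Between settings 9 of 12 were lower in tumor macrophages on the Ets2-expressing arrays (median -1.44), and 5 of 12 were higher on the Ets2-deficient arrays (median 0.63). Summed on the linear scale, the 12 markers gave 27276, 7525, 12389 and 12424, and the 8 laminin, nidogen and perlecan genes 5955, 1537, 2243 and 1762, in the order of arrays used above. Nid1, the brightest of the 8 on every array, weighs most in the latter sums. Its probe sets differed by -0.55 and 0.04 in tumors. The part of fibroblasts in the results was not tested.

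Other matrix-producing cells were followed in the same way. Of 13 pericyte and smooth muscle markers, 5 were bright in the remodeling Ets2 comparison and 3 were called lower: Abcc9 (-2.59), Pdgfrb (-2.29) and Acta2 (-1.05). Rgs5, a pericyte marker, was at 0.21. The median was -0.07 over all 13 and -1.05 over the 5 bright ones. Of 14 endothelial markers, Tek (-2.76) and Ramp2 (-2.28) were called lower among 6 bright ones. The median was -0.06 over all 14 and -0.56 over the 6 bright ones. Endothelial markers were mixed in level. Pecam1 (4.39 to 5.20), Cdh5 (4.96 to 5.06) and Kdr (4.83 to 5.26) lay below the median of every array, Flt1 (7.27 to 8.54) above it on all 4, and Vwf (5.59 to 6.67), Eng (6.08 to 6.34) and Plvap (5.71 to 6.95) on some. Mast cell markers were lower in 5 of 5 bright cases (Mcpt4 -3.20 and Cma1 -2.85 among them), with a median of -1.72 over the 8 measured. Schwann cell and skeletal muscle markers had 0 called in that comparison, among 2 and 1 bright ones, and adipocyte markers 0 of 2. The medians of these lists were -0.02, 0.23 and 0.18. In tumors both bright adipocyte markers were called lower. Macrophage markers had 0 called lower, 1 called higher (Cx3cr1, 2.22) and a median of -0.01. Luminal epithelial markers were called lower in remodeling glands in 3 of 3 bright cases, with a median of -0.97 over the 11 measured. On the tumor arrays these markers were high, with medians of 7.87 and 9.09 against 5.50 and 4.75 on the remodeling arrays. Basal epithelial markers had medians of 5.09 and 6.31 against 4.42 and 4.39. The part of these cells in the results was not tested.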

How the data were processed

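Per the labels' protocols, RNA of sorted cells was amplified from about 10 ng with the NuGEN Ovation system, labelled with biotin and hybridised. The deposited values are log2 expression values per probe set. GCOS and RMA are named in the submitters' processing notes, with version, role and the arrays normalized together not given in the sources used here. The values were used as deposited.

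Of 22690 probe sets, 20380 named exactly 1 gene, by the platform annotation, and 64 controls were left out. A gene was represented by its probe set with the highest mean over 4 arrays, and for the 8 genes every probe set is reported. No test was run, since each group had 1 array. Genes are bright, and differences called, by the array median and 2-fold limits given above. RefSeq promoters were searched on both strands.

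The 8 genes and all gene lists were chosen with earlier results of these data known. Named were the 8 genes, up to 4 called genes per list in the remodeling Ets2 comparison and 2 in each other comparison, and 3 nearest profiles per gene. Names outside this rule were chosen after their values were seen. Alternatives were 3 scalings, the mean of all probe sets, 2 other filters and a 1.5-fold limit. The calling procedure was checked on simulated data with known differences. Python 3.11.15, numpy 2.4.6, pandas 2.3.3 and matplotlib 3.10.9 were used.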

Additional observations from a re-analysis of the deposited data

Results flagged for a closer look

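By the probe set used for each gene, the Ets2 difference ran in opposite directions in tumors and in remodeling glands for 3 genes of which 1 side was called. The tumor minus the remodeling difference was 3.20 for Lama4 (0.07 and -3.13), 3.08 for Lamb1 (0.24 and -2.83) and 2.31 for Lamc1 (0.09 and -2.22). These differences between settings were not tested, as each rests on 4 single arrays. The tumor values lie within the spread between probe sets of a gene (pooled standard deviation 0.338), so their signs carry little. Lama4 turned to -0.02 in tumors after centring each array on its median and to -0.01 after quantile normalization. Lamb1 turned to -0.01 with the mean of all its probe sets. The second bright probe set of Lamb1 was at -0.18 in tumors and the second one of Lamc1 at -0.09. Both thus had the same sign as in remodeling glands. The second probe set of Lama4, dim on all 4 arrays, was at 0.29 in tumors.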

How the results depend on the processing

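In remodeling glands the count of genes lower past 2-fold on the Ets2-deficient array was 6 of 8 and stayed 6 under 3 scalings and without the filter on dim genes. It was 7 of 8 bright genes at 1.5-fold, 4 of 6 with the mean of all probe sets and 4 of 4 with the 75th percentile as filter. Of all bright genes, 9.73%, 4.41% and 3.36% were called lower in these settings, in the same order. None was called higher under any of the 7 alternatives. In the tumor Ets2 comparison 0 genes were called under all 7. On the Ets2-expressing arrays 4 to 7 genes were lower in tumor macrophages, 5 in the main setting. Over all genes tested, 3.64% to 13.0% were called lower there, depending on the setting. The median difference of differences was 1.88 and lay between 1.60 and 1.83 under 4 alternatives. It was at least 1 for 6 genes in the main setting and with the hybridization controls. That number was 5 with median centring, quantile normalization or the mean of all probe sets. The comparison of settings on the Ets2-deficient arrays was not stable. There 1 gene (Lamb1) was called higher, but 1 was called lower instead under each of the 3 scalings (Nid2, at -1.27 with median centring, -1.08 with quantile normalization and -1.18 with the hybridization controls). In that comparison 0 were called with the mean of all probe sets or the 75th percentile filter. Without a filter 2 of 8 were called higher, and at 1.5-fold 3 of 6 bright genes were higher and 1 lower. Over all genes tested, 6.15% were called higher without a filter, and 15.9% higher and 7.76% lower at 1.5-fold. Under the 3 scalings 2.53% to 5.28% of all bright genes were called lower. No called difference of a single gene changed sign under the scalings or the mean of all probe sets. No paired analysis was possible because each group has 1 array. Signal limits Lama4, Lamb2 and the dim second probe sets, which lay at or below the median on most arrays.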

Other observations

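The equal Lamb2 values on 3 arrays were not isolated. Of all 22690 probe sets, 320 had exactly equal deposited values on 3 arrays and 75 on all 4, together 1.74%. Where 3 arrays were equal, the array that differed was the Ets2-expressing remodeling array for 84 probe sets, the Ets2-deficient remodeling array for 47, the Ets2-expressing tumor array for 91 and the Ets2-deficient tumor array for 98. Penk, the gene nearest in profile to Lamc1, was another, at 7.50 on the Ets2-expressing remodeling array and 5.38 on the other 3. A difference of 0 from such a probe set gives no measure of how close the arrays are.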
